A study of Homo sapiens with 12 samples.

Results

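The 9 long noncoding RNAs described here are known from prostate cancer and were followed by symbol through the deposited expression tables of 2 human prostate cancer cell lines: MALAT1, NEAT1, PCA3, PCGEM1, SCHLAP1, PCAT1, PCAT6, H19 and GAS5. All 9 were found among the 60314 entries that carry a symbol. RNA sequencing had been run on 12 libraries in 4 groups of 3, which the series text calls biological triplicates. C4-2B is a castration-resistant line derived from LNCaP, and 22RV1 comes from a relapsed CWR22 xenograft; the labels give both as wild type, and each is a single established line. Every group was kept for 48 h in glutamine-free RPMI-1640 with 5% serum to which 2 mM L-glutamine had been added. The control groups received nothing further, and the treated groups received the 56-mer at 50 nM; the series title speaks of an aptamer, and the labels describe no inactive control oligonucleotide. Each line was normalized on its own by the authors, so differences in level between the lines are given as descriptions without a test.

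Long noncoding RNAs act as RNA and are not translated into protein. MALAT1 is kept in nuclear speckles, which store splicing factors, and NEAT1 is the scaffold of paraspeckles, nuclear bodies that hold RNA and RNA-binding proteins. PCA3, PCGEM1, SCHLAP1 and PCAT1 are best known for their restriction to, or high level in, prostate tumours; PCA3 is measured in urine as a diagnostic marker, and SCHLAP1 has been described as an antagonist of the SWI/SNF chromatin remodelling complex. PCAT6 is transcribed next to the histone demethylase gene KDM5B, H19 is an imprinted RNA of the IGF2 locus, and GAS5 carries small nucleolar RNAs (snoRNAs) in its introns and is known to be degraded by nonsense-mediated decay when translation proceeds.

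Values are normalized read counts, which are reads divided by 1 size factor per library. Where RPM is named, reads were instead scaled to the same total in every library. The recovered reads per library numbered between 10245014 and 13627140 in C4-2B and between 8847368 and 13740386 in 22RV1. Libraries of C4-2B held reads of 20779 to 22686 genes and those of 22RV1 of 28342 to 31010 genes. All 11 luminal prostate markers in the tables passed the filter on low values in both lines, among them KRT8, the keratin of luminal epithelium, whose C4-2B controls averaged 7208 and 22RV1 controls 9349. Of 9 markers of blood, endothelial and stromal cells, CD3E, PECAM1, COL1A2 and DCN had no read in any C4-2B library; these 4 and LUM are named after their values were seen. COL1A1 had control means of 375 in C4-2B and 286 in 22RV1, CD68 of 142 and 17.5, and VWF of 148 and 2.96. COL1A2 and LUM had no read in C4-2B controls and control means of 21.2 and 25.9 in 22RV1. In bulk RNA, fewer cells of a type and less RNA per cell cannot be told apart. The markers' sum per library lay between 506 and 778 in C4-2B controls and between 529 and 654 in the treated group, and between 336 and 375 and between 323 and 444 in 22RV1. Long noncoding genes together took 5.24% ± 0.017 (SD, n = 3) of the reads in C4-2B controls and 5.21% ± 0.059 in 22RV1 controls.

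MALAT1 and NEAT1 are neighbours on the plus strand of chromosome 11, at chr11:65497688-65506516 and chr11:65422774-65445540 (GRCh38, GENCODE 29), with 52.1 kb between them. Both are single-exon transcripts in their full-length form, MALAT1-202 of 8708 bases and NEAT1-202 of 22743 bases. Their 3′ regions are printed because both are among the most abundant members and because the mature end of MALAT1 and of the long form of NEAT1 is cut by RNase P and carries no poly(A) tail; whether RNA was selected by its tail is not stated in the sources. Capitals mark a U-rich and an A-rich word that belong to the known triple helix of each end, written as DNA.
MALAT1: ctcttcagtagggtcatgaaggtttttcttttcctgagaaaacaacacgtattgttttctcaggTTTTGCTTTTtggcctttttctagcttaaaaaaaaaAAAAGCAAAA
NEAT1: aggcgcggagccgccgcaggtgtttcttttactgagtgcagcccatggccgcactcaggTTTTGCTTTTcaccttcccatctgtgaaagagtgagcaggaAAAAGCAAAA
The MALAT1 stretch is bases 8246 to 8355 of MALAT1-202 (chr11:65506007-65506116), followed by 353 annotated bases, and the NEAT1 stretch is bases 22634 to 22743 of NEAT1-202 (chr11:65445431-65445540), its last. The A-rich word AAAAGCAAAA is the last 10 bases of NEAT1-202, and TTTTGCTTTT is its reverse complement. With the U-rich word first and both within 110 bases, searched on the transcript strand only and without overlap, the pair was present in the longest transcript of 5 of 57133 genes (0.00875%). MALAT1 and NEAT1 are among the 5 by construction, because both words stand within the 110 bases printed for each. The match describes the letters of the annotated transcripts and is no measurement of these libraries.

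In control cells the abundance of the 9 RNAs ran from a place among the most abundant long noncoding genes down to no read. MALAT1 ranked 10 among all long noncoding genes in C4-2B and 1 in 22RV1. In C4-2B controls it had 4308, 6593 and 5684 normalized reads, and in 22RV1 controls 31944, 22404 and 22627. Every 22RV1 library lay above every C4-2B library, and the mean was 4.64-fold higher on the deposited scale and 4.52-fold higher in RPM. NEAT1 went the other way: its controls had 6062, 6093 and 6487 in C4-2B and 4521, 4451 and 4376 in 22RV1, which made the 22RV1 mean 0.716 of the C4-2B mean. The control groups of the lines did not overlap for NEAT1 either. MALAT1 over NEAT1 was therefore 0.711 to 1.08 in the C4-2B controls and 5.03 to 7.07 in the 22RV1 controls.

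**Figure D1:**
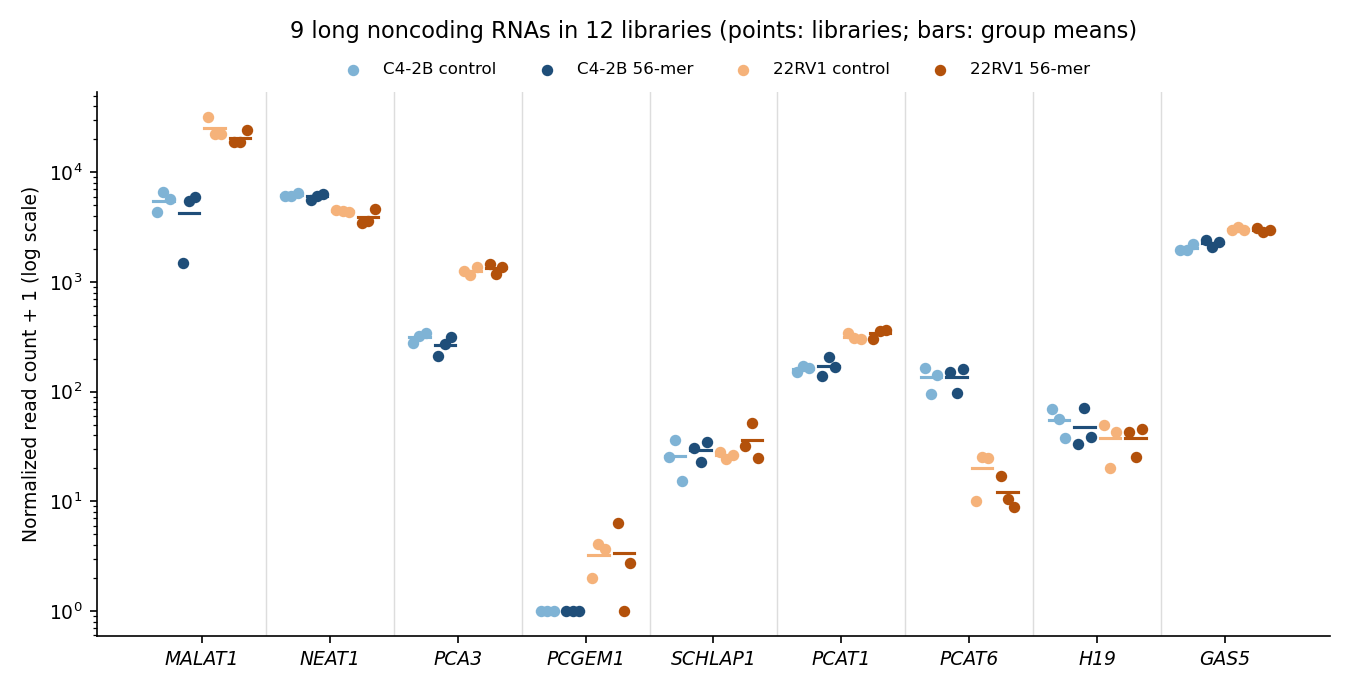
Normalized read count plus 1 on a log axis for each of the 9 RNAs, with 1 point per library and a bar at each group mean. MALAT1, PCA3 and PCAT1 sit higher in 22RV1, NEAT1 and PCAT6 sit higher in C4-2B, and PCGEM1 is at 0 reads in all 6 C4-2B libraries.

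Among the prostate-restricted RNAs, PCA3 and PCAT1 were higher in 22RV1. PCA3, annotated at chr9:76691980-76863307 on the plus strand inside the oppositely transcribed gene PRUNE2, had 276, 321 and 346 normalized reads in C4-2B controls and 1258, 1167 and 1377 in 22RV1 controls. The ratio was 4.03 on the deposited scale and 3.93 in RPM. PCAT1 on chromosome 8, which lies in the gene-poor region beside MYC, had 151, 170 and 162 in C4-2B and 341, 306 and 304 in 22RV1, a ratio of 1.97. For both RNAs the lines were apart in every control library.

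SCHLAP1 and H19 were low and overlapped between the lines. SCHLAP1 (chr2:180692104-180916939, plus strand) had 24.6, 35.4 and 14.4 normalized reads in C4-2B controls and 27, 23.3 and 25.5 in 22RV1 controls. These values rest on 17 to 31 reads per library, and the means differed by a factor of 1.02. H19 (chr11:1995176-2001470, minus strand) had 68.5, 55.9 and 36.4 in C4-2B and 49.0, 19.3 and 42.2 in 22RV1, again with overlapping libraries. PCGEM1 (chr2:192749845-192776899, plus strand), an androgen-regulated prostate RNA, had 0 reads among the 71981394 of the 6 C4-2B libraries, which allows up to 0.0417 RPM (3 reads over all 6 libraries, counting error only). In 22RV1 it had 1, 3 and 3 reads in the controls and 6, 0 and 2 in the treated libraries, 15 of 73565137 in all, too few for the filter of the test. Reads of PCGEM1 were thus found in 22RV1 only, and its level was not tested between the lines.

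PCAT6 was the member with the widest gap in favour of C4-2B. It is a short RNA at chr1:202810954-202812156 on the plus strand. Its C4-2B controls had 165, 94.7 and 142 normalized reads and its 22RV1 controls 9.0, 24.4 and 23.8, so that the C4-2B mean was 7.04-fold higher on the deposited scale and 7.23-fold in RPM. All 3 C4-2B libraries lay above all 3 22RV1 libraries, although the 22RV1 values come from 9 to 27 reads. GAS5 (chr1:173863900-173868882, minus strand) had 1963, 1950 and 2245 in C4-2B and 2976, 3179 and 3014 in 22RV1. Its libraries were apart as well, with a ratio of 1.49.

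Per length, the order of the 9 RNAs within a line depends on which annotated length is used, since several have many short and long isoforms. By RPM per kb of all annotated exons, C4-2B controls were led by MALAT1 with 53.7 ± 11.3 (SD, n = 3) and GAS5 with 48.5 ± 4.38, whose libraries overlapped. NEAT1 with 23.4 ± 1.10 and PCAT6 with 12.9 ± 3.43 came next and were apart from their neighbours in the order. PCA3 (1.90), H19 (1.58) and SCHLAP1 (1.48) each overlapped with the next, and PCAT1 (0.819) and PCGEM1 (0) closed the order. In 22RV1 the same scale gave MALAT1 243 ± 51.6, GAS5 70.3 ± 2.32, NEAT1 16.3 ± 0.255 and PCA3 7.47 ± 0.637, all apart from each other. PCAT6 (1.79), PCAT1 (1.57), SCHLAP1 (1.47) and H19 (1.06) followed with overlap between neighbours, and PCGEM1 (0.109) was last. By the longest transcript alone GAS5 led in C4-2B with 104, apart from MALAT1 with 54.5, and PCA3 with 27 passed NEAT1 with 16.3 in 22RV1.

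**Figure D2:**
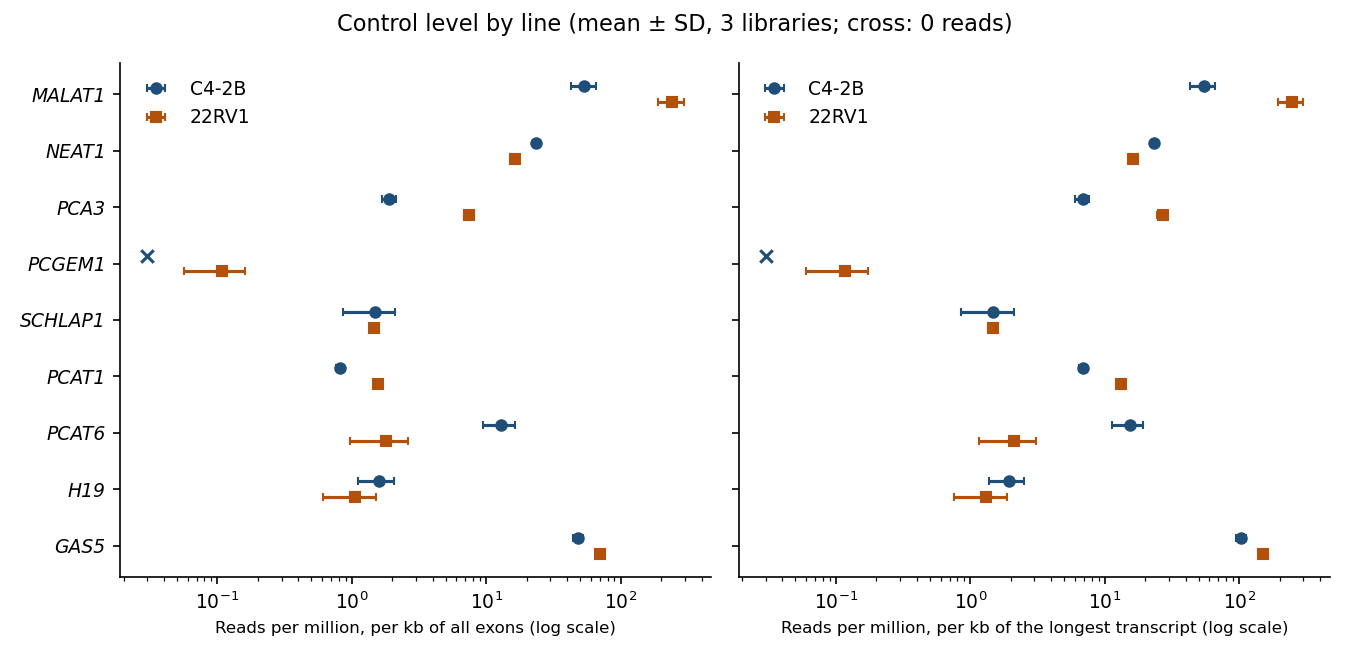
Control level of each RNA in RPM per kb on log axes, mean ± SD of 3 libraries per line, with all annotated exons as the length on the left and the longest transcript on the right; a cross marks 0 reads. PCAT1 moves most with the choice of length, from 0.819 to 6.93 in C4-2B, while the gap between the lines for a given RNA is the same in both panels.

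The second question of the design was whether 48 h with the 56-mer changed these RNAs. Within each line 56-mer and control libraries were compared with limma on log2 of the normalized count plus 1, so that log2 changes of low genes are understated. PCGEM1 did not pass the filter, and the other 8 were tested in both lines. None was called at an adjusted p of 0.05 in either line, and edgeR on the recovered reads called none of them. DESeq2 called none of the 8 in 22RV1 and none of the 3 to which it gave an adjusted p in C4-2B; the other 5 had none there. The share of all genes called was 0.066% of 16657 in C4-2B and 0.00975% of 20517 in 22RV1, so calls were rare in general. At an unadjusted p below 0.05, 0 of 8 members passed in C4-2B, where 8.92% of all genes did, and 1 of 8 passed in 22RV1, where 3.91% did. In no member were the 3 treated libraries apart from the 3 controls, whereas 14.7% of all genes in C4-2B and 9.03% in 22RV1 had groups that did not overlap. The means of 4 members were higher and of 4 lower in each line, and the median log2 change was -0.0076 in C4-2B and 0.021 in 22RV1, beside -0.011 and -0.0026 over all genes tested. Among all long noncoding genes, 0 of 2858 tested in C4-2B and 0 of 4006 in 22RV1 were called, with median log2 changes of -0.030 and -0.033.

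**Figure D3:**
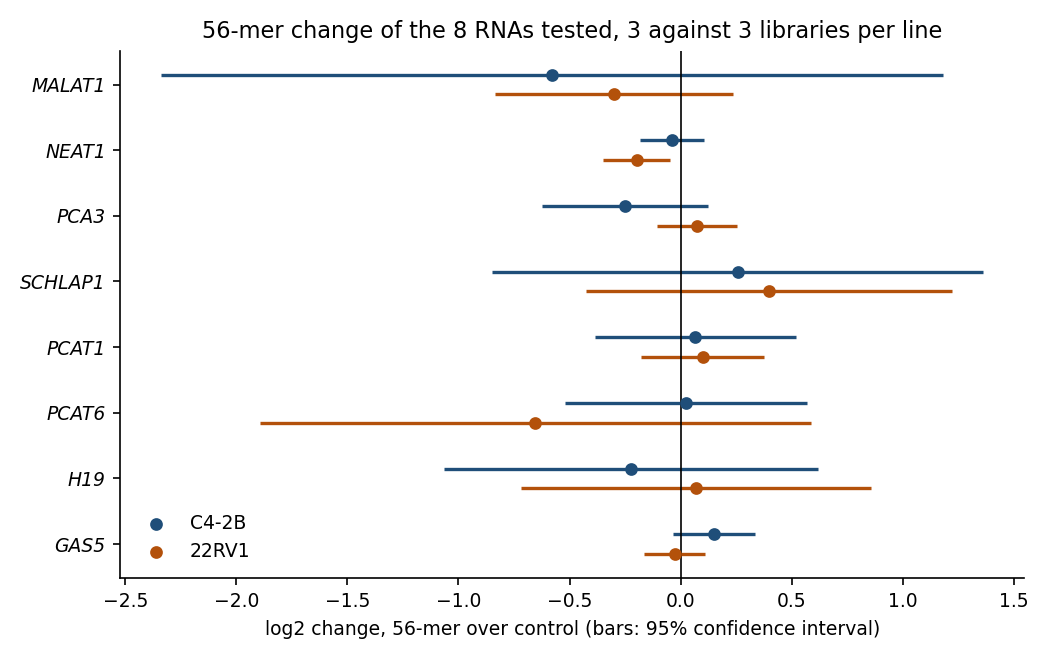
Log2 change of 56-mer over control for the 8 RNAs tested, with 95% confidence intervals from limma, 3 against 3 libraries in each line. All intervals but that of NEAT1 in 22RV1 include 0, and the widest is that of MALAT1 in C4-2B, from -2.34 to 1.18.

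The speckle RNA MALAT1 had the lowest log2 change of the members in C4-2B, and it was no call. Its treated C4-2B libraries had 1495, 5463 and 5938 normalized reads beside the 4308 to 6593 of the controls. Library 1 of the treated group alone was low, at 0.263 of the others of its group on the log scale. The log2 change was -0.58 ± 0.65 (SE, adjusted p 0.856), and without that library it was 0.065. In 22RV1 the treated libraries had 18820, 18849 and 24498 beside 31944, 22404 and 22627 in the controls. All 3 lay below the control mean but the groups overlapped, with a log2 change of -0.30 ± 0.20 (95% confidence interval -0.84 to 0.24, adjusted p 0.99958). The first control alone was high, at 1.42 of the others of its group on the log scale. Leaving out single 22RV1 libraries gave log2 changes from -0.43 to -0.13.

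The low MALAT1 value in the first treated C4-2B library was accompanied by low values of many other genes, while NEAT1 was near the rest of its group. Of the 2524 genes with a mean of at least 1000 in C4-2B, 157 lay more than 0.487 below the rest of the group in log2. Counting both directions, 164 lay at least that far away, which is the distance of PCA3 in that library (-0.487). H19 (-0.66) and PCAT1 (-0.41) were also below the rest of the group there. PCAT6 (0.28), GAS5 (0.14) and SCHLAP1 (0.10) were above it. In the first C4-2B control, 1 of the 2524 genes lay more than 0.507 below. In the treated library only AP002490.1 (-2.01) and KMT2D (-1.99) lay further below than MALAT1 (-1.93, all on the log2 scale). PLEC, a cytoskeletal linker, followed at -1.72, PRR12 at -1.27, ZNF587 at -1.18 and PKD1 at -1.17; these names were chosen after their values were seen. KMT2D, a histone methyltransferase gene, had 430 normalized reads in that library and 1604 and 1836 in the other 2 treated libraries, beside 1058, 1836 and 1362 in the controls. NEAT1 in the same library was at 0.893 of the others, and 542 of the 2524 genes were lower relative to their group. Over all 12 libraries, after centring each line, MALAT1 was compared with 11691 genes with a mean of at least 50 in both lines. The closest were KMT2D, AP002490.1 and MICAL3. Their root mean square differences were 0.18, 0.18 and 0.19 in log2, against a median of 0.58 over all these genes. MALAT1 itself deviated from its line means by 0.55, so a gene with flat values would differ from it by as much. In the first treated C4-2B library AP002490.1 had 661 and MICAL3 137 normalized reads. The other treated C4-2B libraries had 2383 and 2993 for AP002490.1, and 540 and 555 for MICAL3. In 22RV1, KMT2D ranged only from 5365 to 6158. The part of that library's makeup in the MALAT1 value was not tested. MALAT1 varied between libraries of a group more than 99.9% of the abundant genes in C4-2B and 99.8% in 22RV1.

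NEAT1, the paraspeckle scaffold, was the single member with an unadjusted p below 0.05. Its treated 22RV1 libraries had 3464, 3632 and 4634 normalized reads against 4521, 4451 and 4376 in the controls. Libraries 1 and 2 were below all controls and library 3 was above all of them, so the groups overlapped. The log2 change was -0.20 ± 0.075 (95% confidence interval -0.35 to -0.047, unadjusted p 0.0117, adjusted p 0.99958). This error and interval draw on the variance of other genes, as limma does. The SD of NEAT1 itself was 72.3 in the controls and 633 in the treated libraries. Its spread within groups was above that of 93.3% of the abundant genes in 22RV1. Without the third treated library the log2 change was -0.33 with an adjusted p of 0.0372, while the 11 alternatives that kept all libraries gave adjusted p-values of 0.934 to 1. In C4-2B the treated libraries had 5607, 6152 and 6410 beside 6062, 6093 and 6487, a log2 change of -0.039 ± 0.069 whose interval of -0.18 to 0.10 bounds the fold change between 0.882 and 1.07. With a correction for GC content and transcript length the C4-2B estimate was 0.090.

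**Figure D4:**
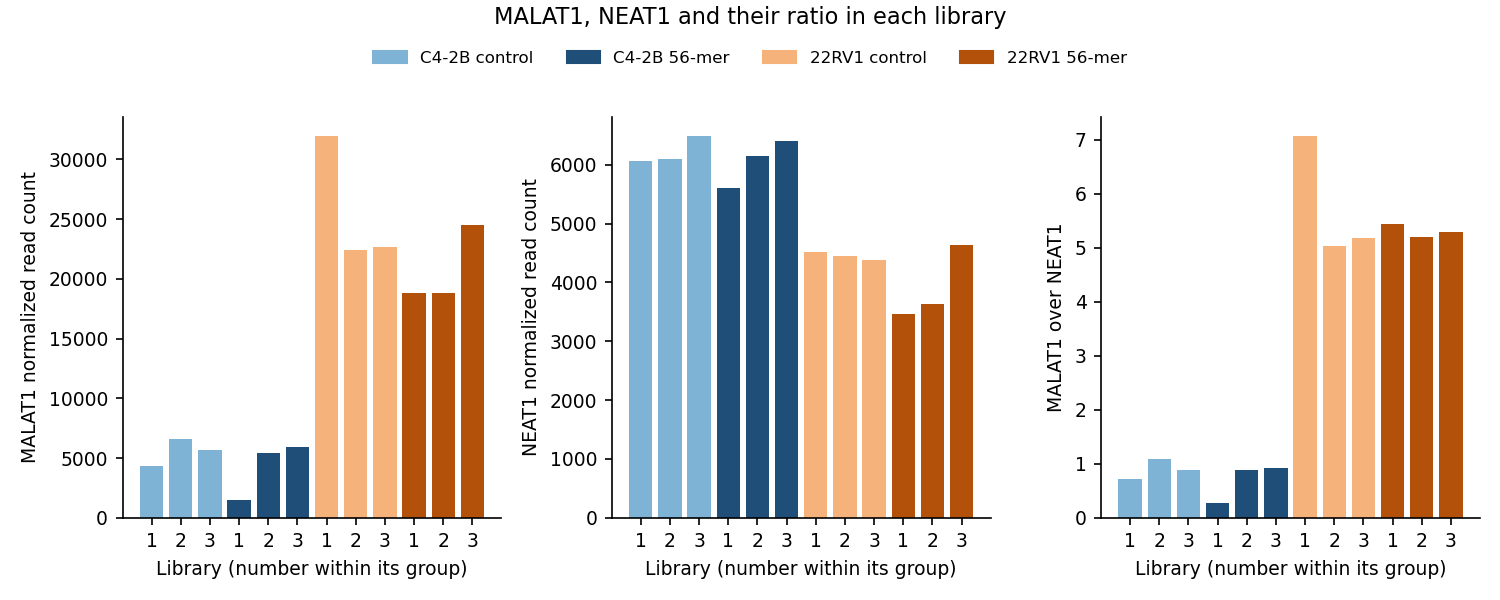
MALAT1, NEAT1 and MALAT1 over NEAT1 in each of the 12 libraries, linear axes starting at 0, with libraries numbered within their group. The first treated C4-2B library stands out in MALAT1 and in the ratio (0.267) but not in NEAT1, and the ratio stays between 5.03 and 7.07 in all 22RV1 libraries.

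The genes of protein partners of both RNAs were followed beside them as RNA, and no protein was measured. None of 16 genes for paraspeckle proteins was called in C4-2B (6 higher, 10 lower, median log2 change -0.041) or in 22RV1 (3 higher, 13 lower, median -0.025). In C4-2B the balance turned to 9 higher with the GC and length correction (median 0.026) and without the second treated library (median 0.014). SFPQ, the gene of a core paraspeckle protein, had means of 3652 without and 3545 with the 56-mer in C4-2B and of 5719 and 5647 in 22RV1. HNRNPA1 and HNRNPK, genes of RNA-binding proteins also found there, had log2 changes of 0.12 and -0.011 in C4-2B and of 0.010 and 0.037 in 22RV1. Of 23 genes for nuclear speckle proteins none was called in either line, with medians of -0.0040 and 0.0015. The C4-2B median was -0.045 with equal totals (7 higher) and 0.041 with the GC and length correction (17 higher). SRRM2 and SON, which build the speckle core, had log2 changes of 0.033 ± 0.30 and 0.017 ± 0.088 in C4-2B and of -0.028 ± 0.053 and 0.090 ± 0.062 in 22RV1; SRSF9, a splicing factor, had 0.013 and -0.014. Without the first treated C4-2B library SRRM2 was called, with a log2 change of 0.32 and an adjusted p of 0.0470.

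PCA3 had 210, 274 and 317 normalized reads in treated C4-2B libraries, beside 276, 321 and 346 in the controls. All but 1 treated library lay below the control mean and the groups overlapped (log2 change -0.25 ± 0.18, adjusted p 0.717). The lowest value, 210, came from the first treated library. Leaving out single C4-2B libraries gave log2 changes from -0.38 to -0.087. In 22RV1 the treated libraries had 1452, 1190 and 1361, within and just above the control range, with a log2 change of 0.073 ± 0.090 (adjusted p 0.99958). PRUNE2, on the other strand, had log2 changes of -0.13 ± 0.081 and 0.081 ± 0.060. PCA3 was 10.9% ± 1.32 (SD, n = 3) of the PRUNE2 value in C4-2B controls and 10.2% ± 2.20 with the 56-mer, and 17.5% ± 0.943 and 17.4% ± 1.32 in 22RV1. PRUNE2 itself was 2.51-fold higher in 22RV1 controls than in C4-2B controls. The strand setting of the counting is not given, so reads of PCA3 and PRUNE2 cannot be told apart where their exons overlap.

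PCAT1 had 139, 207 and 166 normalized reads in treated C4-2B libraries and 300, 355 and 367 in treated 22RV1 libraries. Each treated group spanned its control group, with log2 changes of 0.067 ± 0.22 (adjusted p 0.956) and 0.10 ± 0.14 (adjusted p 0.99958). MYC, the oncogene of the same chromosomal region, had log2 changes of -0.11 ± 0.084 and 0.016 ± 0.074. SCHLAP1 had 29.4, 21.9 and 34.1 in treated C4-2B libraries and 31.2, 50.6 and 23.9 in treated 22RV1 libraries. Its log2 changes of 0.26 ± 0.54 and 0.40 ± 0.41 came with intervals from -0.85 to 1.36 and from -0.43 to 1.22, so neither a fall nor a rise to more than double the level was bounded away at this depth. UBE2E3, the ubiquitin-conjugating enzyme gene 50.3 kb from SCHLAP1, had log2 changes of 0.13 ± 0.15 and 0.12 ± 0.10. Of 22 genes for SWI/SNF subunits none was called, with medians of -0.035 in C4-2B and 0.033 in 22RV1; SMARCA4, an ATPase of the complex, had -0.14 and 0.066, ARID1A -0.084 and 0.0093, and SMARCD2 0.017 and -0.090.

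PCAT6 had 151, 97.3 and 159 normalized reads in treated C4-2B libraries, all within the control range, and a log2 change of 0.023 ± 0.26 (adjusted p 0.985) that was -0.018 with libraries scaled to equal totals and -0.064 with the GC and length correction. In 22RV1 the treated libraries had 16.1, 9.56 and 7.95 beside 9.0, 24.4 and 23.8. All 3 lay below the control mean, yet these are 7 to 18 reads and the interval ran from -1.89 to 0.59 around -0.65 (adjusted p 0.99958). KDM5B, which starts 1.48 kb away on the opposite strand, showed the reverse order of lines to PCAT6: its control mean was 751 in C4-2B and 2351 in 22RV1. PCAT6 thus amounted to 17.7% ± 3.77 (SD, n = 3) of KDM5B in C4-2B controls and 0.799% ± 0.342 in 22RV1 controls. The log2 changes of KDM5B with the 56-mer were -0.14 ± 0.12 and 0.073 ± 0.073.

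H19 had 32.4, 70.6 and 38.0 normalized reads in treated C4-2B libraries and 41.9, 24.6 and 45.1 in treated 22RV1 libraries. Both sets overlapped with their controls, with log2 changes of -0.22 ± 0.41 (adjusted p 0.917) and 0.069 ± 0.39 (adjusted p 0.99958). IGF2, the growth factor gene of the same imprinted domain, had 0 reads in all C4-2B libraries and 2.0 to 4.0 normalized reads in 22RV1 controls. MRPL23, a mitochondrial ribosomal protein gene 10.7 kb from H19, had groups apart in C4-2B. Controls had 1409 to 1495 and treated libraries 1642 to 2032. Of 9 genomic neighbours of members tested in C4-2B, MRPL23 was the only 1 with groups apart, beside 14.7% of all genes. Its log2 change of 0.35 ± 0.095 had an adjusted p of 0.291 and was not a call; in 22RV1 it was 0.15 ± 0.12. No gene of the polycomb repressive complex 2, described as a partner of H19, was called among 6 in either line; EZH2, its methyltransferase, had log2 changes of 0.067 and -0.085, and RBBP4 and RBBP7 had -0.044 and 0.035 in C4-2B and -0.041 and -0.049 in 22RV1.

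TMEFF2, a membrane protein gene 554 kb from PCGEM1, was nearly absent from C4-2B: it had 2 reads in the 3 C4-2B controls together and a mean of 1644 normalized reads in 22RV1 controls. Among the neighbours of MALAT1 and NEAT1 none was called. FRMD8 had log2 changes of -0.071 and -0.058, and LTBP3 of 0.099 and -0.049. Of all 11 neighbour genes 9 were tested in C4-2B and 10 in 22RV1, and none was called.

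GAS5 was the member with the smallest adjusted p in C4-2B. Its treated C4-2B libraries had 2421, 2083 and 2328 normalized reads against 1963, 1950 and 2245 in the controls. All 3 lay above the control mean of 2053 ± 167 (SD, n = 3), but the groups overlapped. The log2 change was 0.15 ± 0.089, with an interval of -0.034 to 0.33 and an adjusted p of 0.656. In 22RV1 the treated libraries had 3127, 2878 and 2999 beside 2976, 3179 and 3014, a log2 change of -0.027 ± 0.068 whose interval bounds the fold change between 0.892 and 1.08. ZBTB37, whose annotated span overlaps GAS5 on the opposite strand, had log2 changes of -0.37 ± 0.20 and -0.058 ± 0.083.

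Other genes that, like GAS5, are listed as hosts of snoRNAs had mostly higher means in treated C4-2B cells without any call. Of 14 such host genes, 13 were higher and 1 was lower in C4-2B, with a median log2 change of 0.20, beside -0.011 over all genes; 2 of the 14 had an unadjusted p below 0.05, beside 8.92% of all genes, and 0 an adjusted one, the lowest being 0.485. SNHG3 had controls of 1119 to 1277 and treated libraries of 1346 to 1553 (log2 change 0.25 ± 0.10), and SNHG16 had 2221 to 2403 and 2572 to 2599 (0.17 ± 0.080). The groups did not overlap in 4 of the 14, beside 14.7% of all genes: SNHG3, SNHG16 and SNHG7 had treated libraries above all controls, and SNHG32 had 52.9 to 61.4 below its controls of 61.6 to 110.3. SNHG3 and SNHG32 are named after their values were seen. SNHG29, the most abundant of the list, had 0.12 ± 0.079 with overlapping groups, and SNHG32 had -0.52 ± 0.33. In 22RV1, 9 of the 14 were higher, with a median of 0.0018 that was -0.015 with equal totals (6 higher), and none was called. In C4-2B 13 of 14 were also higher with equal totals, with quantile normalization and with the GC and length correction, at medians of 0.16, 0.22 and 0.18. Leaving out each C4-2B library in turn left 12 or 13 higher. The C4-2B change was larger than the 22RV1 change in 13 of the 14, and 0 of the 14 differences passed an adjusted p of 0.05. The snoRNAs of the GAS5 introns are not analysed here.

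**Figure D5:**
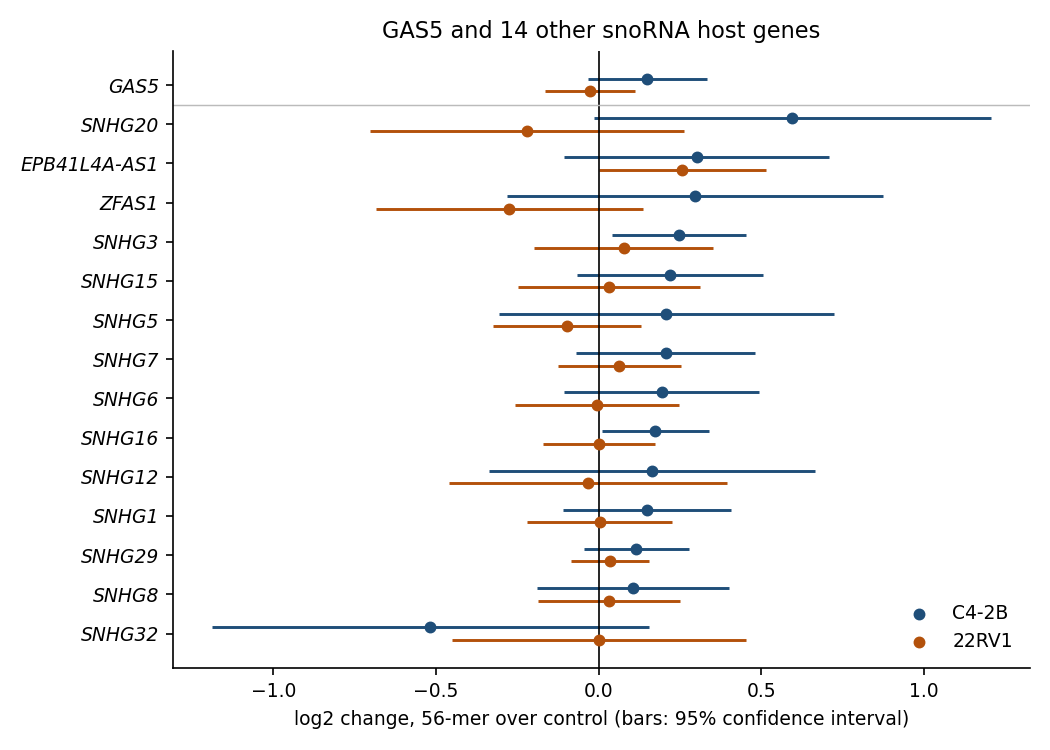
Log2 change of 56-mer over control for GAS5 and, below the grey line, 14 other snoRNA host genes ordered by their C4-2B change, with 95% confidence intervals from limma. In C4-2B 13 of the 14 points lie right of 0, most with intervals that include it, and in 22RV1 the points scatter around 0.

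Genes of pathways tied to GAS5 did not give calls. Of 15 nonsense-mediated decay factors 7 were higher and 8 lower in C4-2B and 9 higher and 6 lower in 22RV1, with medians of -0.011 and 0.041. Without the first treated C4-2B library 9 of the 15 were higher there, with a median of 0.036, and with the GC and length correction 8 were, with a median of 0.021. UPF1, the central helicase of that decay, had log2 changes of -0.14 ± 0.14 and -0.0055 ± 0.078, SMG5 of 0.050 and -0.042, and RBM8A of 0.18 and 0.0033. GAS5 has also been described as a decoy for the glucocorticoid receptor. The gene of that receptor, NR3C1, had a control mean of 4.69 (14 reads) in C4-2B, where it did not pass the filter. In 22RV1 its control mean was 471 (1467 reads). NR3C1 is named after its values were seen. Of the steroid receptors and glucocorticoid-induced genes 7 were tested in C4-2B and 8 in 22RV1, and none was called; FKBP5 had log2 changes of -0.026 and -0.042, and TSC22D3 of 0.15 and 0.11.

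The response to the 56-mer was compared between the lines by an interaction term in limma, over 15527 genes that passed the filter in both. None of these genes was called (0%; edgeR called 1 and DESeq2 4, with 1227 or 7.9% at an unadjusted p below 0.05), and none of the 8 members was (adjusted p 0.701 to 0.984). The differences, 22RV1 minus C4-2B, ran from -0.68 ± 0.61 for PCAT6 to 0.32 ± 0.20 for PCA3. GAS5 (-0.18 ± 0.11) and NEAT1 (-0.16 ± 0.12) had the narrowest errors among them.

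Of 26 other long noncoding RNAs tied to prostate or other cancers in the tables, 12 were tested in C4-2B and 18 in 22RV1, and none was called. In C4-2B 4 were higher and 8 lower (median -0.097), and in 22RV1 4 were higher and 14 lower (median -0.075). In C4-2B, 6 of 12 were higher without the second control (median -0.068) and without the second treated library (median -0.019). Without the first 22RV1 control, 10 of 18 were higher, with a median of 0.0061. NORAD, an RNA induced by DNA damage that binds PUMILIO proteins, had log2 changes of -0.15 ± 0.086 and 0.049 ± 0.062, and was 2.70-fold higher in 22RV1 controls than in C4-2B controls. TUG1 had 0.029 and 0.039 and a ratio of 2.64 between the lines. CTBP1-AS, which lies antisense to the corepressor gene CTBP1, had 0.22 ± 0.10 and -0.16 ± 0.092.

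The genes with patterns closest to the other members over the 12 libraries, by the same measure as for MALAT1, were NECAB3, TPRN and GMPPB for NEAT1 (root mean square difference 0.055 to 0.064), AC069234.2, H3C6 and SSH1 for PCA3 (0.069 to 0.090) and ADCY9, CDC25B and GAK for PCAT1 (0.064 to 0.077). For GAS5 they were YWHAB, EZR and U47924.2 (0.045 to 0.053). For the low RNAs the differences were larger: DDX58, HYKK and FAM81A for SCHLAP1 (0.18 to 0.23), VASH2, RETREG1 and RMI1 for PCAT6 (0.30 to 0.34), and AL590822.2, LINC01089 and ZNF385C for H19 (0.27 to 0.29). These RNAs also varied more themselves. Their root mean square deviation from the line mean was 0.40 for SCHLAP1, 0.49 for PCAT6 and 0.46 for H19. It was 0.091 for GAS5, 0.13 for NEAT1, 0.15 for PCAT1 and 0.18 for PCA3.

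The authors' deposited comparison tables list the same 8 RNAs in both lines. The sign of their log2 fold change was the same as here in 16 of 16 cases, and the lowest adjusted p-value that the authors' deposited table gives for any of them was 0.999995.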

How the data were processed

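The authors deposited, per cell line, a table of normalized signal per gene and a comparison table. Per the values, the deposited signal is a read count divided by 1 size factor per library: every value was a whole multiple of a step within a tolerance of 0.01 in all 12 libraries, and the reads were recovered that way. Per the file headers, the deposited comparison tables hold a mean, a log2 fold change with its standard error, a score and a p-value before and after adjustment; only the log2 fold changes and adjusted p-values of the members were used. DESeq is named, with no version, in the submitters' processing notes. For the aligner, counting tool, strand setting, genome build, annotation and RNA selection, each is not given in the sources used here.

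Genes with at least 10 normalized reads in at least 3 of the 6 libraries of a line entered limma 3.58.1 (R 4.3.3, with trend and robust variance) as log2 of the value plus 1; tests were two-sided, with Benjamini-Hochberg adjustment over all genes tested and a threshold of 0.05. Errors are standard errors for log2 changes and SD for means, and intervals are 95% confidence intervals. The limma script was tested on simulated data. edgeR 4.0.16 and DESeq2 1.42.0 on the recovered reads were alternatives, beside other scalings, pseudocounts, filters and leaving out each library. No pair of libraries was identical. Replicate numbers follow record order and name libraries only. Lengths, positions and the printed transcript ends come from GENCODE 29 on GRCh38, matched by symbol; the files' own build may differ.

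The 9 members and the gene lists were chosen with earlier results of these data known. Apart from members, the text names the 3 most abundant genes and any called gene of each list, all genomic neighbours, and the 3 genes closest to each member, except for a few genes that are not reported here; other names are said to be chosen after their values were seen.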

Additional observations from a re-analysis of the deposited data

Results flagged for a closer look

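CTBP1-AS was the single gene of 50 named or listed for naming whose libraries lay apart from the controls in opposite directions in the 2 lines. All 3 treated C4-2B libraries were above and all 3 treated 22RV1 libraries below their controls. Over all genes tested, the groups did not overlap in 14.7% in C4-2B and 9.03% in 22RV1, in either direction. The share of all genes apart in opposite directions in the 2 lines was not counted. The difference of its log2 changes, 22RV1 minus C4-2B, was -0.37 ± 0.13 (SE) with an unadjusted p of 0.00917 and an adjusted p of 0.546 in limma, so the test of the difference itself was not passed.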

How the results depend on the processing

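No member was called under any alternative that gave it an adjusted p, except NEAT1 in 22RV1 without the third treated library (adjusted p 0.0372). The estimated direction reversed for PCAT6 in C4-2B with equal totals (-0.018) and with the GC and length correction (-0.064), for NEAT1 in C4-2B with that correction (0.090), and for the PCAT1 difference between lines with DESeq2 (-0.0064). Leaving out single libraries gave ranges in C4-2B of -0.21 to 0.24 for PCAT6, -0.081 to 0.016 for NEAT1, -0.93 to 0.065 for MALAT1, -0.081 to 0.20 for PCAT1 and -0.072 to 0.55 for SCHLAP1. In 22RV1 it gave -0.33 to 0.33 for H19 and -0.057 to 0.0033 for GAS5. For the difference between lines it gave -0.11 to 0.62 for H19, -0.36 to 0.63 for MALAT1, -0.10 to 0.18 for PCAT1 and -0.15 to 0.47 for SCHLAP1. Counts over all genes moved more. In C4-2B, 11 calls became 34 without the filter, 1 without trend or robust variance, 42 with DESeq2, 0 with edgeR (1399 at an unadjusted p below 0.05), 33 with a shared spread, 0 at an adjusted p of 0.01 and 0 to 81 without single libraries, the highest being without the first treated library. In 22RV1, 2 calls became 11 without the filter, 0 without trend or robust variance, 5 with the GC and length correction, 0 with a shared spread, 0 at 0.01 and 0 to 13 without single libraries. For the difference, 0 calls became 1 with quantile normalization, 5 without the filter, 1 without trend or robust variance, 2 with the GC and length correction, 4 with DESeq2, 1 with edgeR and 0 to 11 without single libraries. The cause was not tested. The alternatives for gene lists and for the MALAT1 over NEAT1 ratio without the first treated C4-2B library were chosen after seeing the data. No paired analysis was possible because nothing in the labels ties a treated library to a control. SCHLAP1, H19 and PCAT6 in 22RV1 rest on few reads, which limits what change could be seen.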
